A study of Mus musculus with 24 samples.

Results

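Kidneys collected 5d post-MI were compared with kidneys of sham-operated mice, gene by gene and then by nephron segment, renal cell type and pathway. The comparison covers every kidney of both groups whose counts could be assigned to a sample, which are 8 sham kidneys and 8 of the 9 kidneys labelled MI at 5d, or 16 of the 24 kidneys of the series. All animals were young adult male wildtype mice of the C57BL/6 J strain. In the MI group the left anterior descending coronary artery (LAD) was tied off permanently, and the sham group had the same operation without closing the artery. Both groups were collected 5d after surgery. By the study's methods, the mice were killed when a hemodynamic measurement ended, and the organs were then removed. The ninth MI kidney was left out because the name of its column is also that of a kidney from the 28d group. A further 6 kidneys taken 28d post-MI entered the model to estimate the spread between kidneys and to compare levels between 5d and 28d. The series holds no sham kidneys taken at 28d. Bulk kidney RNA was sequenced at the 3′ ends of the mRNA, so fewer cells of a type and less RNA per cell cannot be told apart. The total counts of the sham kidneys ranged from 2280618 to 3786275 and those of the 5d group from 2351162 to 3382058, and the mean log2 totals differed by −0.06 (exact permutation test, two-sided, p = 0.62).

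An infarct reduces the output of the heart, and the kidney senses this mainly through renal perfusion, sympathetic nerves and salt delivery to the distal tubule. Juxtaglomerular cells in the wall of the afferent arteriole answer with renin, which starts the formation of angiotensin and aldosterone. Along the nephron the proximal tubule takes up most of the filtered salt, phosphate, glucose and amino acids, the thick ascending limb takes up salt without water and makes uromodulin, and the collecting duct adjusts water and potassium.

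The kidney markers were present in every kidney. The summed level of the proximal tubule genes Lrp2, Cubn and Slc34a1 was 4680 to 5847 CPM (counts scaled to the same total in every kidney) in sham kidneys and 3955 to 5242 CPM at 5d post-MI. Tissue from outside the kidney was present too. The adipocyte genes Adipoq, Plin1 and Lep summed to 31.1 to 160.5 CPM in sham kidneys, with a median of 84.7, and to 8.23 to 99.0 CPM at 5d (median 68.2). The lowest sums at 5d were 8.23 CPM in replicate 6, 19.6 CPM in replicate 3 and 24.99 CPM in replicate 2. Adrenal cortex genes other than Fdx1 and Fdxr, which the kidney itself uses, summed to 981 CPM in sham replicate 2, to 731 CPM in sham replicate 6 and to 85.5 CPM in 5d replicate 5, and to under 5 CPM in each of the other kidneys. Counts of genes are therefore also given without these 3 kidneys where that changes a result.

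Few genes passed the test. Of 12780 genes tested by edgeR's quasi-likelihood F test, 9 were DEGs with a Benjamini-Hochberg adjusted p under 0.05, which is 0.0704% of the genes tested. Of these, 7 rose (0.0548%) and 2 fell (0.0156%). At an unadjusted p under 0.05 there were 1009 genes (7.9%), 501 of them higher (3.92%) and 508 lower (3.97%) at 5d post-MI. Counts of list members below are to be read against these 2 shares. Over all genes tested, the log2 fold change had a median of 0.00018. In fits that left out 1 kidney there were 38 DEGs without 5d replicate 1, 13 without 5d replicate 5, 8 without sham replicate 8, 7 without 5d replicate 8, 6 without 28d replicate 2 and 1 to 3 without each of the other kidneys. The count of DEGs was 36 with DESeq2 and 22 with limma voom, and it was 2 without the 3 kidneys that held adrenal RNA. Sema3g, which encodes a secreted semaphorin of vessels, had the lowest p-value. Its level was 17.4 to 29.2 CPM (median 23.9) in sham kidneys and 26.9 to 53.03 CPM (median 42.1) at 5d post-MI, with 7 of 8 kidneys above every sham kidney (log2 fold change 0.81, SE 0.12, adjusted p = 0.00118 from edgeR). Sema3g remained a DEG in each of the 22 fits that left out a kidney, and in the fit without the 3 kidneys that held adrenal RNA its adjusted p was 0.0479. It was no longer a DEG with the replicate number as a block (log2 fold change 0.85, adjusted p = 0.0622). The same held with the white adipocyte score and without those 3 kidneys (0.63, adjusted p = 0.209), and with the score of red blood cell genes as a covariate (0.70, adjusted p = 0.681).

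The other DEGs that rose were the 5 haemoglobin genes tested and Gm4450. Hba-a1, for example, had 581 to 985 CPM (median 883) in sham kidneys and 1286 to 4758 CPM (median 2089) at 5d (log2 fold change 1.501). The cells that this haemoglobin RNA came from were not tested. The summed haemoglobin level was 2211 to 4140 CPM (median 3669) in sham kidneys and 4986 to 19180 CPM (median 8828) at 5d post-MI. These sums do not overlap. Of the 12780 genes tested, 5 (0.0391%) were higher in all 8 kidneys at 5d than in every sham kidney, and 4 of them were haemoglobin genes. Among the other genes of red blood cells, 5 of the 9 tested had an unadjusted p under 0.05, all higher at 5d, with a list median of 0.39. They included Isg20 (log2 fold change 1.34), Sptb (0.79), Slc25a37 (0.39) and, named after its value had been seen, Bpgm (0.21), and none of the 5 had an adjusted p under 0.05. The defining marker Alas2 had at most 2 counts in a kidney. When the score of these red blood cell genes was added to the model as a covariate, no gene remained a DEG in edgeR. All 9 tested genes of this list had a positive log2 fold change at 5d. Fits with this score therefore cannot fully separate it from the group. The adjusted p of the 5 haemoglobin genes was 0.105 to 0.162 without the 3 kidneys with adrenal RNA, and in the 22 fits that left out a kidney each was a DEG in 3 to 9.

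Gm4450 is annotated as a protein-coding gene (ENSMUSG00000090817, GRCm38 chromosome 3, 98445675 to 98457126, minus strand) in the cluster of 3 beta-hydroxysteroid dehydrogenase genes. Its level was 132 to 187 CPM (median 152) in sham kidneys and 155 to 244 CPM (median 204) at 5d post-MI, and 7 of 8 kidneys lay above every sham kidney. The log2 fold change was 0.40 (SE 0.08, adjusted p = 0.0423 from edgeR). Its neighbours Hsd3b4 (0.48, adjusted p = 0.128) and Gm10681 (0.45, adjusted p = 0.246), named after their values had been seen, had a similar difference but did not pass the test. The genes of this cluster are near-identical, so the counting could have split their reads, and Gm4450 overlaps Zfp697 on the opposite strand. Without the 3 kidneys with adrenal RNA its log2 fold change was 0.40 and its adjusted p 0.232, and it was a DEG in 4 of the 22 fits that left out a kidney.

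The DEGs that fell were Ccn1, a matricellular protein gene and target of the YAP pathway, and the collagen gene Col5a3. Ccn1 had 118 to 234 CPM (median 191) in sham kidneys and 42.7 to 124 CPM (median 87.4) at 5d post-MI (log2 fold change −1.16, SE 0.21, adjusted p = 0.0423 from edgeR). Of the 14 YAP and TEAD targets tested, 1 fell, which is Ccn1. Tead1, a partner of YAP in the nucleus, was higher at 5d by 0.23 on the log2 scale (adjusted p = 0.444), and Ccn2, the closest relative of Ccn1, differed by −0.02 (adjusted p = 0.992). The list median was 0.01. Ccn1 was a DEG in 2 of the 22 fits that left out a kidney, those without 5d replicate 1 or 5, and without the 3 kidneys with adrenal RNA its adjusted p was 0.0943.

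**Figure D1:**
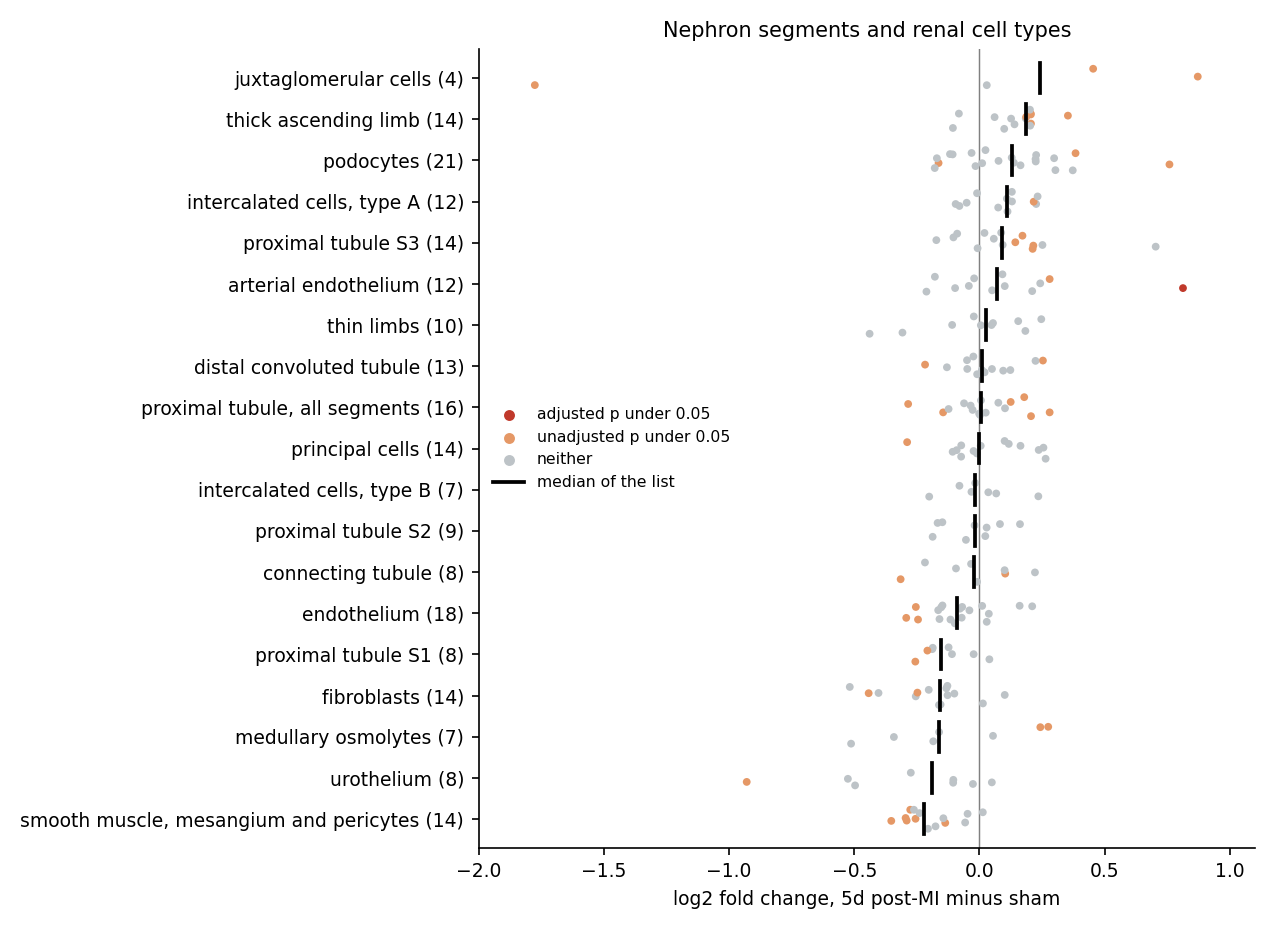
Log2 fold changes between 5d post-MI and sham (x axis) of the tested members of 19 lists of nephron segments and renal cell types, ordered by the median (black bar), with the number tested in parentheses. Each point is a gene. The medians of the tubular segments lie between −0.15 for the proximal tubule S1 and 0.19 for the thick ascending limb, and the only red point is Sema3g.

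The thick ascending limb had the highest share of members that were higher at 5d among the tubular segments: 5 of its 14 tested genes had an unadjusted p under 0.05, all higher, against 3.92% of all genes, and none had an adjusted p under 0.05. The median of this list was 0.19. Umod, the gene of uromodulin, had 643 to 1032 CPM (median 838) in sham kidneys and 849 to 1129 CPM (median 942) at 5d, so that the groups overlapped widely (log2 fold change 0.21, adjusted p = 0.547 from edgeR). Egf, the precursor of epidermal growth factor, had 469 to 646 CPM (median 559) in sham kidneys and 575 to 785 CPM (median 648) at 5d, and 4 of 8 kidneys lay above every sham kidney (0.21, adjusted p = 0.307). Kcnj1, a potassium channel gene, and Irx1, a transcription factor gene, which were named after their values had been seen, were higher by 0.20 and 0.35. Slc12a1, the salt transporter that furosemide blocks, differed by 0.06 (adjusted p = 0.955). In fits that left out a kidney, between 3 and 7 genes of the list had an unadjusted p under 0.05 and none of these was lower. With fat and adrenal scores as covariates there were 3, and with the white adipocyte score and without the 3 kidneys with adrenal RNA there was 1.

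The proximal tubule showed no common direction. Among all genes, 3.92% were higher and 3.97% lower at an unadjusted p under 0.05. Of 16 genes used along the whole proximal tubule, 4 were higher and 2 lower, and the median was 0.0044. The higher ones were the water channel gene Aqp1 (log2 fold change 0.28), Slc7a9 of cystine uptake (0.21, named after its value had been seen), Cubn, the receptor cubilin (0.18), and the transcription factor gene Hnf4a (0.12). Cubn had 111 to 136 CPM in sham kidneys and 127 to 160 CPM at 5d, with 5 of 8 kidneys above every sham kidney (adjusted p = 0.401 from edgeR). The lower ones were Gatm, an enzyme of creatine synthesis (−0.28), and the phosphate transporter gene Slc34a1 (−0.14). Gatm had 660 to 851 CPM (median 800) in sham kidneys and 464 to 951 CPM (median 559) at 5d. Of the 8 kidneys at 5d, 5 lay below and 2 above every sham kidney, and the difference was 0.0028 with the red blood cell score as a covariate. Without the 3 kidneys with adrenal RNA, 2 genes of the list were higher and 2 lower.

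Within the proximal tubule, 2 of the 8 tested S1 genes were lower at an unadjusted p under 0.05, against 3.97% of all genes. The S1 median was −0.15. Of the 14 tested S3 genes 4 were higher, against 3.92% of all genes, with a median of 0.09. None had an adjusted p under 0.05. The S1 genes were Slc34a3, a phosphate transporter gene (42.0 ± 5.36 CPM in sham kidneys and 35.0 ± 5.97 CPM at 5d, SD, n = 8, log2 fold change −0.26), and the sulfate transporter gene Slc26a1 (−0.21). With Slc34a1, both sodium-phosphate transporter genes were thus lower, while Pth1r, the receptor for parathyroid hormone, differed by 0.01. The S3 genes included Napsa, a protease gene (2391 ± 234 CPM in sham kidneys and 2776 ± 388 CPM at 5d, 0.22), Aadat of lysine breakdown (0.21) and the amino acid transporter gene Slc6a18 (0.14). Without the 3 kidneys with adrenal RNA, 1 S1 gene was lower and 3 S3 genes were higher. With the red blood cell score as a covariate, edgeR gave 0 in both lists at an unadjusted p under 0.05, and the medians were 0.07 for S1 and −0.08 for S3. Of the 9 S2 genes tested, edgeR and DESeq2 each gave 0 at an unadjusted p under 0.05.

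In the distal nephron, 1 of 13 genes of the distal convoluted tubule was higher and 1 lower at an unadjusted p under 0.05. Among all genes, 3.92% were higher and 3.97% lower. The salt transporter gene Slc12a3 had 385 ± 29 CPM in sham kidneys and 399 ± 39.9 CPM at 5d (SD, n = 8, log2 fold change 0.05, adjusted p = 0.883 from edgeR). In the connecting tubule Klk1, the kallikrein gene, was higher by 0.10 and the sodium-calcium exchanger gene Slc8a1 lower by 0.31, and neither was a DEG. Among 14 genes of principal cells 1 was lower, Tmem45b (−0.29). The water channel gene Aqp2 had 353 to 611 CPM in sham kidneys and 301 to 1218 CPM at 5d, and 2 kidneys at 5d lay above and 3 below every sham kidney. Of 12 genes of type A intercalated cells 1 was higher, Aqp6 (0.22), and of the 7 tested of type B and the 10 tested of the thin limbs edgeR and DESeq2 each gave 0 at an unadjusted p under 0.05. The osmolyte transporter genes Slc6a6 for taurine (0.24) and Slc5a3 for inositol (0.27) were higher at 5d, but the median of the 7 medullary osmolyte genes was −0.16. Slc5a3 overlaps Mrps6 on the same strand, and reads of the pair may have been assigned to either.

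In the glomerulus, no podocyte gene had an adjusted p under 0.05 in edgeR. Of the 21 podocyte genes tested, 2 were higher at an unadjusted p under 0.05, among them the transcription factor gene Wt1 (0.38), and 1 was lower, Cd2ap (−0.16), whose product binds nephrin. The median of the list was 0.13, and among all genes 3.92% were higher and 3.97% lower. Without the 3 kidneys with adrenal RNA, 3 podocyte genes were higher and 0 lower in edgeR. Nphs1, the nephrin gene named after its value had been seen, had 4.62 ± 1.12 CPM in sham kidneys and 5.97 ± 2.04 CPM at 5d (0.37, adjusted p = 0.69), and Podxl, the gene of the abundant podocyte sialoprotein, differed by 0.02.

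Ren1, the renin gene (GRCm38 chromosome 1, 133350510 to 133360325), had 80.8 to 188.5 CPM (median 141.5) in sham kidneys and 178 to 423 CPM (median 242) at 5d post-MI. 7 of the 8 kidneys at 5d lay above every sham kidney. The log2 fold change was 0.87 (SE 0.18), with an adjusted p of 0.1 from edgeR, 0.00214 from DESeq2 and 0.00783 from limma voom. In edgeR the adjusted p of Ren1 was 0.253 without the 3 kidneys with adrenal RNA and 0.208 with the replicate block. It was 0.424 with fat and adrenal scores and 0.869 with the red blood cell score as covariates. Ren1 was a DEG in 1 of the 22 fits that left out a kidney, and its log2 fold change was 0.65 to 0.96 over the other alternatives. Kcnj8, a potassium channel gene of juxtaglomerular cells and pericytes, was higher by 0.45 (adjusted p = 0.498). Akr1b7, another gene of renin cells that the adrenal cortex uses too, was lower by 1.78 on the log2 scale, but its high values were those of the sham kidneys with adrenal RNA, 71.8 CPM in replicate 2 and 100.5 CPM in replicate 6, against at most 6.63 CPM in the other sham kidneys. Without the 3 kidneys with adrenal RNA its log2 fold change was 0.22.

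Of the 11 genes of the renin-angiotensin-aldosterone system tested, 6 were higher and 1 was lower at an unadjusted p under 0.05, against 3.92% and 3.97% of all genes, and the median was 0.16. None had an adjusted p under 0.05. Beside Ren1, the higher genes included Mme, the peptidase neprilysin (64.9 to 90.7 CPM in sham kidneys and 70.2 to 103.6 CPM at 5d, log2 fold change 0.24, adjusted p = 0.366 from edgeR). Further ones, which were named after their values had been seen, were the substrate gene Agt (0.40), the mineralocorticoid receptor gene Nr3c2 (0.50) and the aminopeptidase gene Enpep (0.16). The lower gene was Agtr1a, the main angiotensin II receptor (−0.20, adjusted p = 0.587), with 26.8 to 38.6 CPM in sham kidneys and 21.97 to 32.2 CPM at 5d. Ace differed by 0.0023 and Hsd11b2, the enzyme that shields the mineralocorticoid receptor from cortisol-like steroids, by 0.10. In each fit that left out a kidney, 5 or 6 genes of this list were higher. There were 4 without the 3 kidneys with adrenal RNA, and 2 with the red blood cell score as a covariate.

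Among 10 genes of natriuretic peptide and cGMP signalling, 2 were higher, Mme and the uroguanylin gene Guca2b (0.12), and 1 was lower, the clearance receptor gene Npr3 (−0.39, adjusted p = 0.471). The 13 tested genes of vasoconstrictor and vasodilator signals had a median of −0.03, with Ptgis, the prostacyclin synthase gene, higher by 0.42 and the kininogen gene Kng1 by 0.31. Neither passed the adjusted test.

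**Figure D2:**
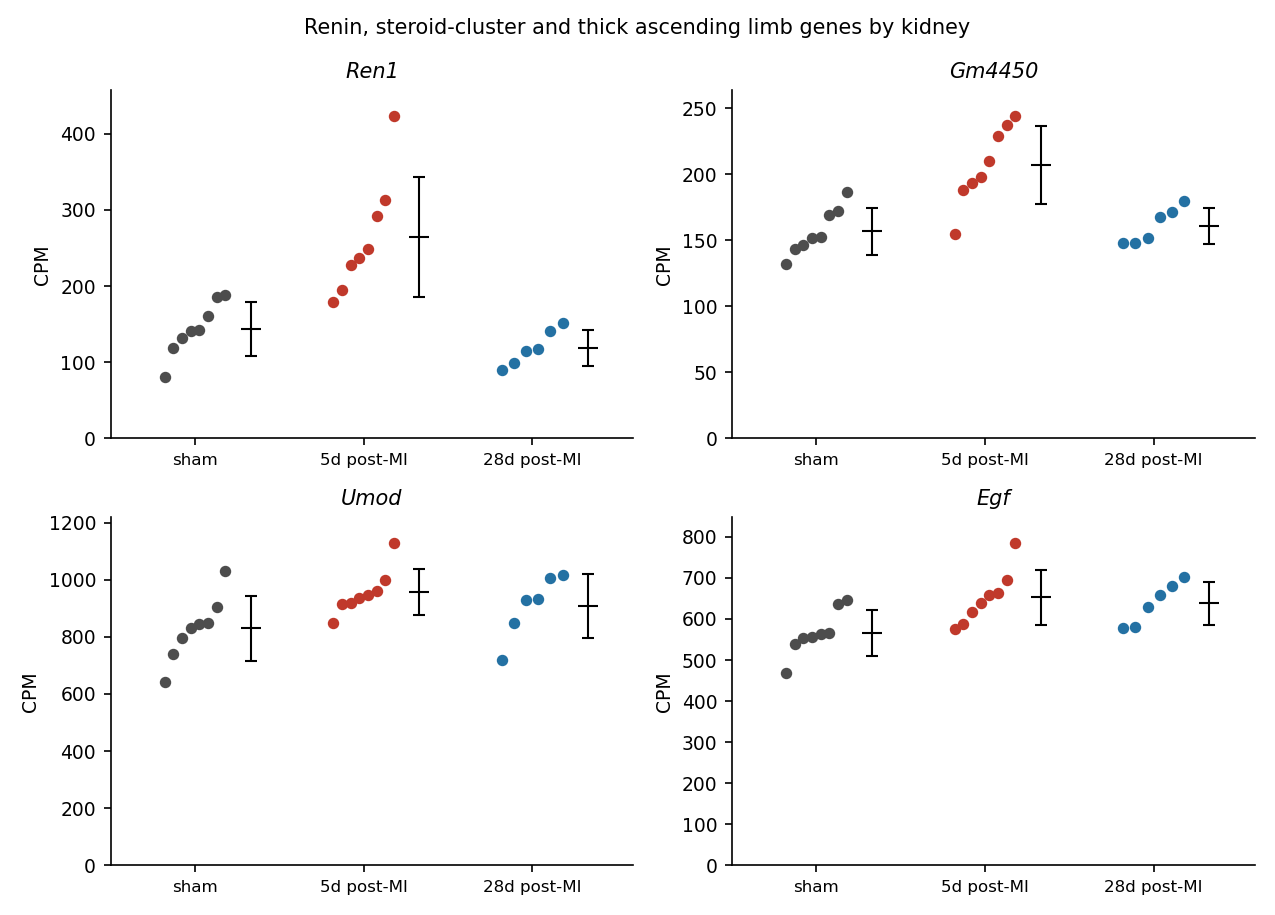
CPM (y axes, from 0) of Ren1, Gm4450, Umod and Egf in each kidney of the sham (grey), 5d post-MI (red) and 28d post-MI (blue) groups, with the mean and SD as bars. At 5d, 7 of 8 kidneys exceed every sham kidney in Ren1 and Gm4450, against 1 of 8 in Umod and 4 of 8 in Egf.

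Of 14 genes of smooth muscle, mesangium and pericytes, 6 were lower and 0 higher at an unadjusted p under 0.05 in edgeR, also in DESeq2, against 3.97% of all genes that were lower, with a median of −0.22. None had an adjusted p under 0.05. They included Pdgfrb, the growth factor receptor gene of pericytes (28.8 ± 3.68 CPM in sham kidneys and 23.4 ± 3.09 CPM at 5d, SD, n = 8, log2 fold change −0.29), Notch3 (−0.35), the contractile gene Tagln (−0.28) and Mylk, the myosin light chain kinase gene (−0.14). In fits that left out a kidney, 2 to 7 of the 14 were lower. Of 18 genes of endothelium 3 were lower, Eng (−0.29), Kdr, the receptor for vascular endothelial growth factor (−0.25), and Cdh5 (−0.25), and the median was −0.09. Without the 3 kidneys with adrenal RNA there were 3 mural genes and 0 endothelial genes. The arterial endothelium list, which holds Sema3g, had a median of 0.07.

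Of 27 matrix and fibrosis genes, 1 fell, Col5a3, and 6 in all were lower and 1 higher at an unadjusted p under 0.05. Among all genes, 3.97% were lower and 3.92% higher. The list median was −0.20. Col5a3 had 4.85 to 14.6 CPM (median 9.06) in sham kidneys and 2.17 to 6.76 CPM (median 3.94) at 5d, with 6 of 8 kidneys below every sham kidney (log2 fold change −1.02, SE 0.22, adjusted p = 0.0423 from edgeR). Its adjusted p without the 3 kidneys with adrenal RNA was 0.105, and it was a DEG in 4 of the 22 fits that left out a kidney. The collagen gene Col6a3 (−0.48) was lower and Col5a2 (0.29) was higher. Among fibroblast genes Col3a1 (−0.44) and Gsn (−0.25) were lower, with a median of −0.16 over the 14 tested. Without the 3 kidneys with adrenal RNA, 3 matrix and 0 fibroblast genes were lower in edgeR, and the median of the matrix list was −0.13. With the white adipocyte score as a further covariate the counts were again 3 and 0, and the matrix median was −0.07. Hspg2, the perlecan gene of basement membranes, had 66.1 ± 4.66 CPM in sham kidneys and 54.8 ± 4.63 CPM at 5d (SD, n = 8, −0.27, adjusted p = 0.119).

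No marker of tubular injury passed the test. Of the 12 tested, edgeR gave 0 and DESeq2 gave 1 at an unadjusted p under 0.05, and the median was 0.04. The osteopontin gene Spp1 had 593 ± 62.9 CPM in sham kidneys and 644 ± 64.2 CPM at 5d (SD, n = 8, log2 fold change 0.12, adjusted p = 0.676), and Clu, the clusterin gene, differed by 0.02. Havcr1 and Lcn2, which rise in acute tubular injury, had at most 14 and 16 counts in a kidney. They were below the count filter and not tested in the main fit, and a small difference in them was not detectable at this depth. Of 16 cell cycle genes tested, edgeR gave 0 and DESeq2 gave 1, lower, at an unadjusted p under 0.05.

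Of 14 macrophage genes tested, 4 were lower and 0 higher at an unadjusted p under 0.05 in edgeR and DESeq2, against 3.97% of all genes that were lower, with a median of −0.22. The complement gene C1qb had 17.0 to 24.4 CPM (median 21.1) in sham kidneys and 13.9 to 17.5 CPM (median 16.6) at 5d (log2 fold change −0.34, adjusted p = 0.307 from edgeR), C1qa was lower by 0.33 and Lyz2 by 0.38. Csf1r, the receptor that macrophages depend on, differed by −0.08. Of 15 lymphocyte genes 3 passed the count filter, among them Ighm (−0.46) and Igkc (−0.11). Of 14 genes of antigen presentation edgeR and DESeq2 gave 0 at an unadjusted p under 0.05. Without the 3 kidneys with adrenal RNA 2 macrophage genes were lower, and with fat and adrenal scores as covariates 1 was. The summed macrophage level was 312 to 373 CPM in sham kidneys and 268 to 397 CPM at 5d.

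No gene of the interferon response was a DEG. Interferons signal through transcription factors that bind an element in the promoters of these genes, the interferon-stimulated response element (ISRE). Of 23 tested genes of the interferon response, 10 were lower and 0 higher at an unadjusted p under 0.05, against 3.97% of all genes that were lower, and the median was −0.30. DESeq2 gave 9 lower and 0 higher. Isg20, counted above among the genes of red blood cells, was not in this list. It was higher at 5d (log2 fold change 1.34, adjusted p = 0.098 from edgeR). Rtp4 had the lowest p-value, with 5.12 to 13.9 CPM (median 7.86) in sham kidneys and 3.35 to 6.63 CPM (median 4.22) at 5d post-MI, and 6 of 8 kidneys lay below every sham kidney (log2 fold change −0.92, SE 0.20, adjusted p = 0.0694 from edgeR and 0.0258 from DESeq2). The next were Bst2 (−0.36), an antiviral tetherin, and Gbp3 (−0.59), a guanylate-binding protein. Ifi27 (−0.40) and the immunoproteasome gene Psmb9 (−0.37) were lower too. Further lower genes, named after their values had been seen, were Gbp2 (−0.47), Ifit1 (−0.53), Oasl2 (−0.49) and Usp18 (−0.43). Rsad2, which encodes the antiviral enzyme viperin, had 33.9 ± 6.33 CPM in sham kidneys and 35.6 ± 4.45 CPM at 5d (SD, n = 8) and differed by 0.07. Between 5 and 13 genes were lower in fits that left out a kidney, and 6 without the 3 kidneys with adrenal RNA. With fat and adrenal scores as covariates 4 were lower and 1 was higher.

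The element is visible in the promoters of several of these genes. RefSeq start sites of GRCm38.p6 matched 19 of the 23 tested genes, and 10 of them (52.6%) held the ISRE letters, which are GAAA, any 2 bases and GAAA again, on either strand in the 250 bases before a start. Of 9082 tested genes with such a window, 2.97% did. Among the 10 lower genes 6 had a window and 4 held the motif. These 4 stretches are shown because their genes were lower together, with the motif in capitals, 5′ to 3′ on the strand of the gene, and the stretches of Bst2 and Gbp3 hold overlapping copies. They lie at chr8:71537567-71537622 (minus strand) for Bst2, chr3:142620584-142620633 (plus strand) for Gbp2, chr3:142559979-142560034 (plus strand) for Gbp3 and chr19:34640765-34640833 (plus strand) for Ifit1.
Bst2: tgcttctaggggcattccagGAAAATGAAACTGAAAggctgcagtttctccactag
Gbp2: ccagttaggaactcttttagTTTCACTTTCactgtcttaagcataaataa
Gbp3: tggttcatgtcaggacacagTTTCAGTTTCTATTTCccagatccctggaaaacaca
Ifit1: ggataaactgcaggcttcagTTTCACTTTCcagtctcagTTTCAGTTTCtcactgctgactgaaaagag
The motif was also in windows of 6 genes that were not among the 10 lower ones, which were Rsad2 and, named after their values had been seen, Ifit3, Ifit3b, Isg15, Oas1a and Stat2. A match describes these letters and says nothing of binding.

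Immediate early genes were the pathway with the lowest median. They are transcribed within minutes of a stimulus, with no need for new protein, and their mRNA is short-lived. A hemodynamic measurement preceded the removal of the kidneys, and its part in these levels was not tested. Of 21 tested, 13 were lower and 1 was higher at an unadjusted p under 0.05, against 3.97% and 3.92% of all genes, and the median was −1.06. None had an adjusted p under 0.05 in edgeR. In DESeq2 several did, among them Jun (0.00191), Btg2 (0.00655), Ier2 (0.00655) and Nr4a1 (0.0066), while Dusp1 did not (0.0831). Fos had 64.6 to 179 CPM (median 114) in sham kidneys and 6.4 to 78.5 CPM (median 34.8) at 5d post-MI (log2 fold change −1.70, adjusted p = 0.119 from edgeR and 0.0153 from DESeq2). Junb had 83.7 to 187 CPM (median 159) in sham kidneys and 17.7 to 104 CPM (median 52.6) at 5d (−1.52, adjusted p = 0.098 from edgeR and 0.00191 from DESeq2). Nr4a1, an orphan nuclear receptor gene, had 68.8 to 218 CPM (median 105) in sham kidneys and 5.49 to 61.1 CPM (median 43.8) at 5d, and all 8 kidneys at 5d lay below every sham kidney, which held for 2 of the 12780 genes (0.0156%). The kidneys at 5d were spread widely: Egr1, a zinc finger transcription factor gene, was 7.92 CPM in replicate 2 and 208 CPM in replicate 1, against 177 to 394 CPM in sham kidneys. Klf6 was the member that was higher (0.23). In each fit that left out a kidney, 13 or 14 of the list were lower, and there were 13 with fat and adrenal scores or the red blood cell score as covariates. The other gene with all 8 kidneys at 5d below every sham kidney was Cyb5b, a cytochrome of the mitochondrial outer membrane, with 309 to 340 CPM (median 323) in sham kidneys and 268 to 308 CPM (median 289) at 5d (−0.17, adjusted p = 0.119).

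The promoters of these genes were searched for the CRE, with the letters TGACGTCA, and for the CArG box bound by serum response factor, on both strands. RefSeq windows of the 250 bases before a start matched 17 of the 21 tested genes. Motifs further upstream were not searched for, so genes without a match may still hold them there. The CRE was in those of Btg2 and Dusp1, which is 11.8% of the 17 genes against 2.95% of the 9082 tested genes with a window, and the CArG box was in that of Zfp36 (5.88% against 1.37%). The stretches are shown with the motif in capitals, on the strand of the gene, at chr1:134079294-134079341 (minus strand) for Btg2, chr17:26508588-26508635 (minus strand) for Dusp1 and chr7:28379257-28379306 (minus strand) for Zfp36.
Btg2: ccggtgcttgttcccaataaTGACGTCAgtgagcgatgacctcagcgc
Dusp1: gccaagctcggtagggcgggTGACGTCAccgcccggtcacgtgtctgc
Zfp36: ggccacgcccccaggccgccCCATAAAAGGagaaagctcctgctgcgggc
Btg2, an antiproliferative p53 target, was lower by 1.48 on the log2 scale, Dusp1, a phosphatase of MAP kinases, by 0.97 and Zfp36, which destabilises mRNA, by 1.15.

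**Figure D3:**
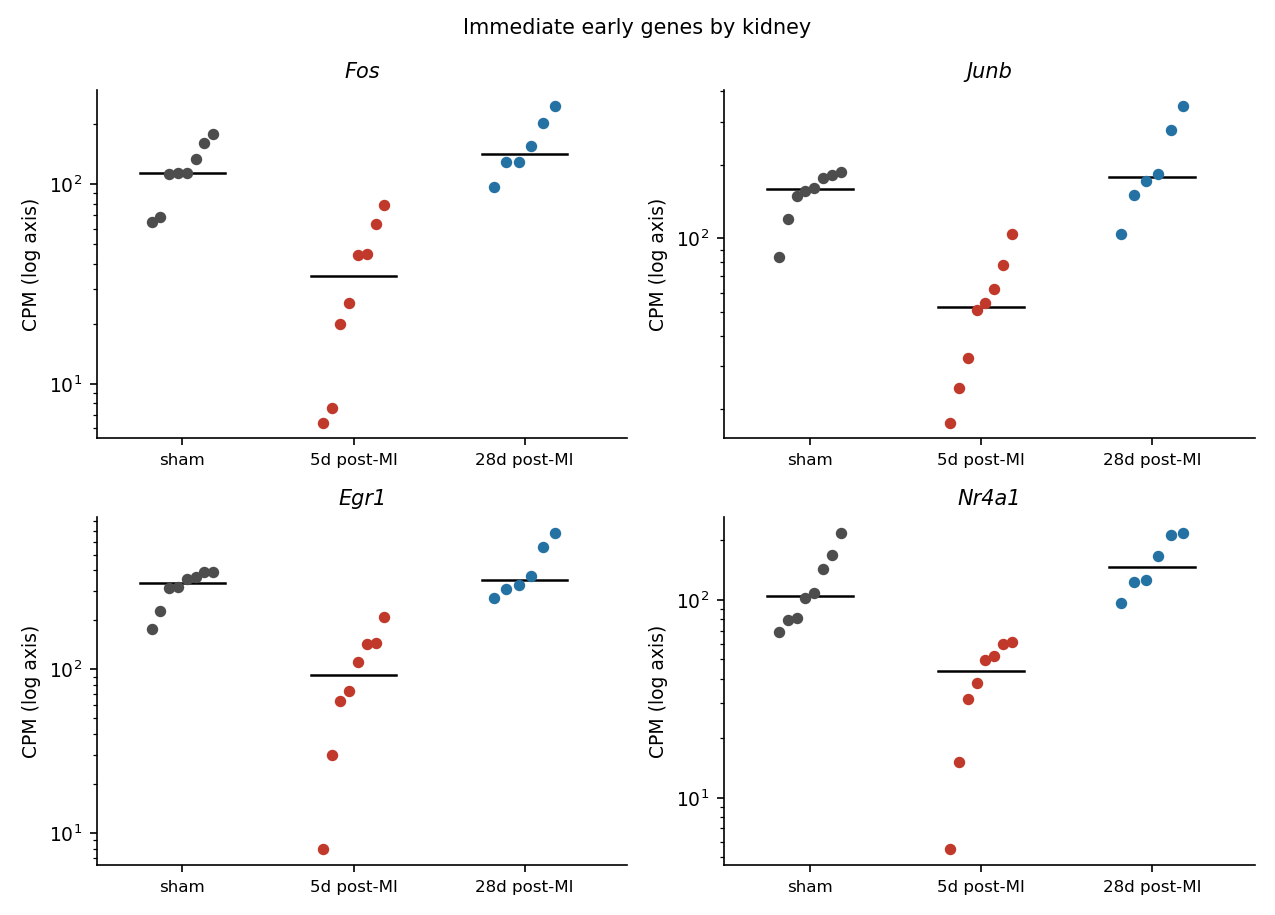
CPM (y axes, log scale) of 4 immediate early genes in each kidney of the sham (grey), 5d post-MI (red) and 28d post-MI (blue) groups, with the median as a bar. The medians of Fos are 114 in sham kidneys, 34.8 at 5d and 142 at 28d, and Nr4a1 at 5d lies below every sham kidney.

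Of 14 p53 targets, 5 (35.7%) were lower at an unadjusted p under 0.05, against 3.97% of all genes, Btg2, Plk2 (−0.78), Phlda3 (−0.62), Gdf15 (−0.66) and Zmat3, but the list median was −0.07, with Cdkn1a, the p21 gene, at 0.21. Gdf15, a stress-induced cytokine gene, had 13.8 to 33.2 CPM (median 18.1) in sham kidneys and 9.03 to 24.1 CPM (median 11.3) at 5d (adjusted p = 0.444 from edgeR). Of 16 cytosolic heat shock genes 4 (25%) were lower, among them Hspb8 (−0.61) and Dnajb1 (−0.57), with a median of −0.14. Of 16 genes of endoplasmic reticulum stress, Xbp1 was higher (0.41) and Calr lower (−0.12). Of 18 genes of the hypoxia response 1 was higher, the glucose transporter gene Slc2a1 (0.31), and 3 lower, Aldoa (−0.12), Kdm3a (−0.26) and Car9 (−0.36). Of the 11 tested genes of the acute phase and NF-kB, Cxcl1, a neutrophil chemokine gene, had 5.31 to 14.9 CPM in sham kidneys and 0.423 to 7.03 CPM at 5d (−1.14, adjusted p = 0.133).

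Lipid synthesis was the metabolic pathway with the lowest median. Of 18 tested genes of fatty acid synthesis, 12 were lower and 0 higher at an unadjusted p under 0.05, in edgeR and in DESeq2, against 3.97% of all genes that were lower, and the median was −0.37. None had an adjusted p under 0.05. Acly, which makes cytosolic acetyl-CoA, had 101 to 320 CPM (median 191) in sham kidneys and 81.9 to 178 CPM (median 107) at 5d post-MI (log2 fold change −0.74, SE 0.21, adjusted p = 0.307 from edgeR). Fasn, the fatty acid synthase gene, had 533 ± 261 CPM in sham kidneys and 246 ± 166 CPM at 5d (SD, n = 8, −1.11), Scd1, a desaturase gene, was lower by 1.083 on the log2 scale, the citrate carrier gene Slc25a1 by 0.35 and Me1, malic enzyme, by 0.29. Acaca, the acetyl-CoA carboxylase gene named after its value had been seen, was lower by 0.97. In the pentose phosphate pathway, which supplies NADPH for this synthesis, 3 of the 10 tested genes were lower: Pgd (147 ± 20.9 CPM in sham kidneys and 116 ± 17.6 CPM at 5d, −0.34, adjusted p = 0.133), Tkt (−0.46) and Taldo1 (−0.16). Of 24 genes of cholesterol synthesis 5 were lower, among them Insig1 (−0.36), Srebf2 (−0.23) and Nsdhl (−0.27). In this list 1 was higher, against 3.92% of all genes.

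The lipid genes are used by adipocytes too. No white or brown adipocyte gene had an adjusted p under 0.05. The summed white adipocyte list had a median of 2936.5 CPM in sham kidneys and 3061 CPM at 5d, while most single members had a negative log2 fold change. Of 14 white adipocyte genes tested, 3 were lower, Retn (−0.84), Lipe (−0.66) and Pparg (−0.70), with a median of −0.44. Of 7 brown adipocyte genes tested, 2 were lower, Kcnk3 (−1.45) and Cox7a1 (−0.21), with a median of −0.62. The brown fat genes Ucp1 and Cidea summed to 11.9 to 260 CPM (median 105) in sham kidneys and 0.433 to 196 CPM (median 71.1) at 5d. Fasn was 71.5, 82.3 and 71.9 CPM in replicates 6, 3 and 2, the kidneys at 5d with the lowest adipocyte markers, and 148 CPM in sham replicate 8, whose adipocyte markers were the lowest among sham kidneys. The other kidneys at 5d had 162 to 472 CPM and the other sham kidneys 388 to 1042 CPM, and 5d replicate 7, which had the highest adipocyte markers at 5d with 99.0 CPM, had 162 CPM of Fasn. Without the 3 kidneys with adrenal RNA 8 of the 18 genes of fatty acid synthesis were lower, and with the red blood cell score as a covariate 2 were. With fat and adrenal scores as covariates 9 of the 18 were lower and the median was −0.22, and with the white adipocyte score and without the 3 kidneys with adrenal RNA 4 were lower and the median was −0.18. Of the pentose phosphate genes, 3 were lower under the last of these fits and without the 3 kidneys, 2 with fat and adrenal scores and 0 with the red blood cell score. How much of the difference came from fat was not tested beyond these fits.

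**Figure D4:**
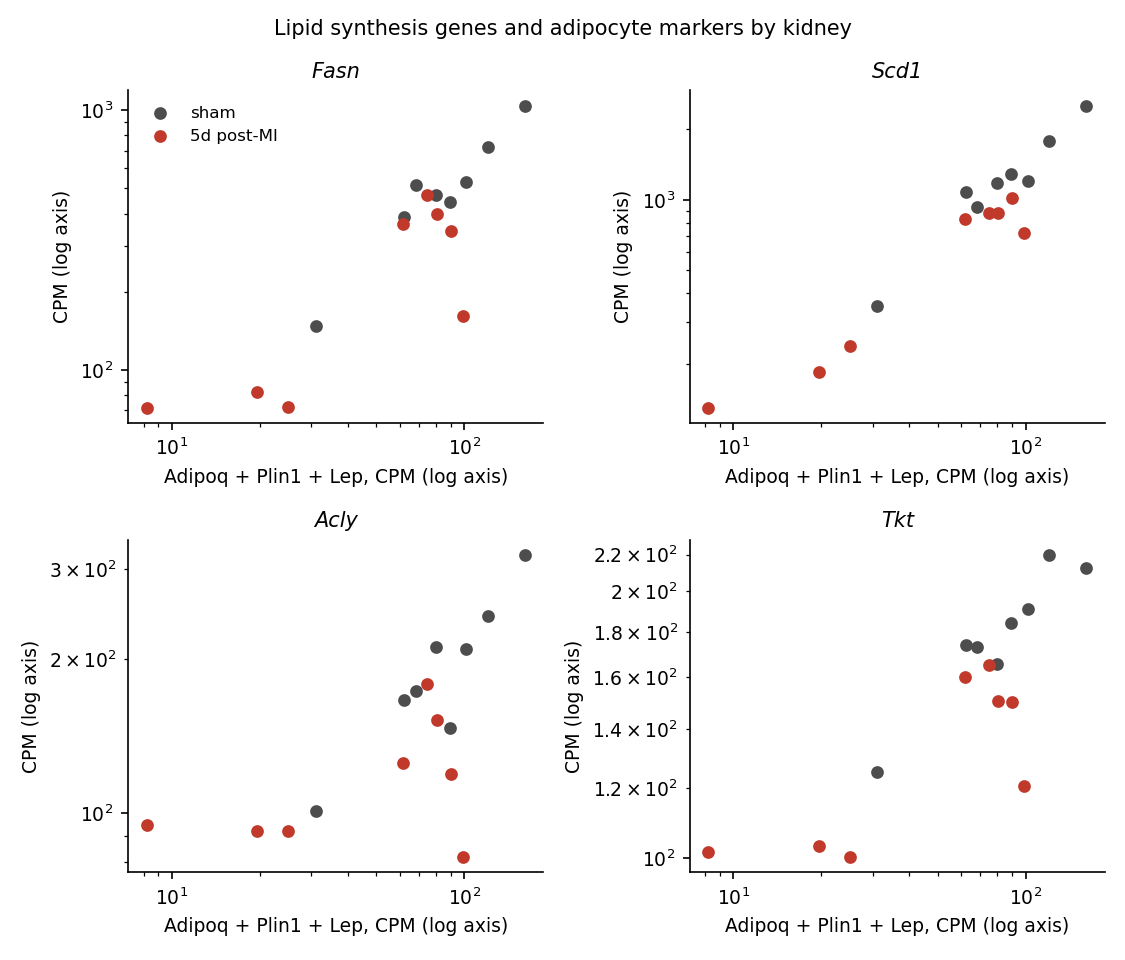
CPM of 4 lipid synthesis and pentose phosphate genes (y axes, log scale) against the summed CPM of the adipocyte markers Adipoq, Plin1 and Lep (x axes, log scale) in each sham (grey) and 5d post-MI (red) kidney. The 3 kidneys at 5d with marker sums of 8.23 to 24.99 CPM hold the lowest levels of Fasn and Scd1.

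Genes of energy metabolism had medians near 0. Of 81 tested nuclear genes of oxidative phosphorylation 1 was higher, Cox7a2l (0.11), and 1 lower, Cox7a1, with a median of −0.02, and of the 13 mitochondrial genes edgeR and DESeq2 gave 0 at an unadjusted p under 0.05. mt-Cytb had 24113 ± 719 CPM in sham kidneys and 24173 ± 757 CPM at 5d (SD, n = 8). Of 13 genes of gluconeogenesis and ammonia formation both tools gave 0, and Pck1, its rate-limiting enzyme, had 1239 ± 302 CPM in sham kidneys and 1547 ± 379 CPM at 5d (log2 fold change 0.32, adjusted p = 0.722 from edgeR). In the citric acid cycle the citrate synthase gene Cs (−0.15) and Pdhb (−0.12) were lower among 17 tested. Of 28 genes of fatty acid oxidation and PPAR alpha targets 2 were higher, among them Cpt1a, the carnitine shuttle enzyme (0.12), and Plin2 was lower (−0.21).

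**Figure D5:**
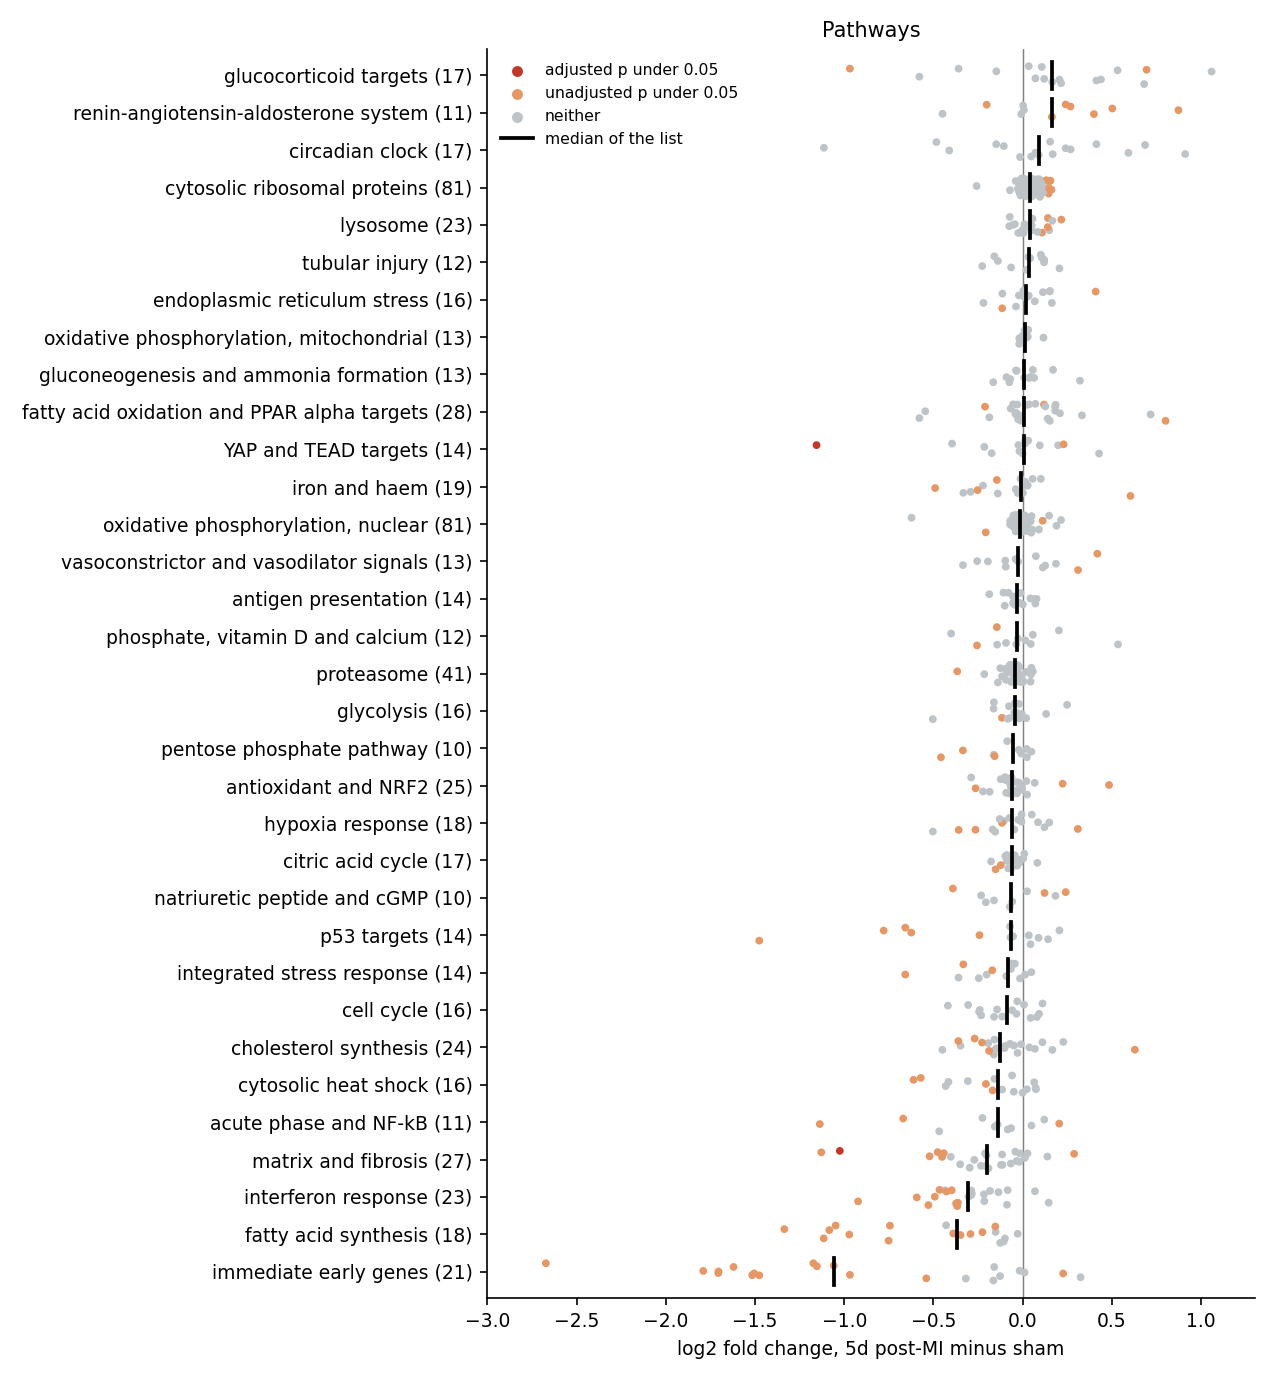
Log2 fold changes between 5d post-MI and sham (x axis) of the tested members of 33 pathway lists, ordered by the median (black bar), with the number tested in parentheses. Each point is a gene. The lowest medians are −1.06 for immediate early genes, −0.37 for fatty acid synthesis and −0.30 for the interferon response, and the only red points are Ccn1 and Col5a3.

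Of 81 cytosolic ribosomal protein genes 7 (8.64%) were higher and 0 lower at an unadjusted p under 0.05 in edgeR (6 and 0 in DESeq2), against 3.92% of all genes that were higher, with a median of 0.04 and the largest difference among them at 0.16 for Rps25 and Rpl10a. Of 23 lysosomal genes 4 were higher and 0 lower in both tools, among them the acid ceramidase gene Asah1 (65.6 ± 7.19 CPM in sham kidneys and 76.4 ± 6.84 CPM at 5d, SD, n = 8, 0.22, adjusted p = 0.444) and the legumain gene Lgmn (0.14), and the median was 0.04. The ribosomal list had 1 higher gene and the lysosomal list 2 without the 3 kidneys with adrenal RNA. The proteasome had 0 higher genes and 1 lower gene of 41, Psmb9, and its median was −0.04. Fcgrt, the neonatal Fc receptor that returns albumin and antibodies from the tubule, was among the genes with the lowest p-values, with 135 to 164 CPM (median 144) in sham kidneys and 156 to 180 CPM (median 172) at 5d (0.21, SE 0.05, adjusted p = 0.1), and so was the zinc exporter gene Slc30a1 (0.28, adjusted p = 0.119). Nudt12, a hydrolase gene of peroxisomes, was lower (−0.43, adjusted p = 0.098).

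Antioxidant genes were mixed. Of 25 tested 2 were higher, Gclc of glutathione synthesis (0.48) and Gpx3, the plasma glutathione peroxidase that the proximal tubule secretes (15018 ± 1198 CPM in sham kidneys and 17538 ± 2575 CPM at 5d, SD, n = 8, 0.22, adjusted p = 0.444), and Gstp1 was lower (−0.26). In iron and haem handling Alas1, the first enzyme of haem synthesis outside red cells, was higher (0.60) and the transferrin receptor gene Tfrc (−0.49), the iron importer gene Slc11a2 (−0.15) and Uros (−0.25) were lower among 19 tested. Of 17 glucocorticoid targets Fkbp5 was higher (0.69, adjusted p = 0.587) and Dusp1 lower (−0.97). Fkbp5 had 26.9 to 67.1 CPM in sham kidneys and 38.0 to 189 CPM at 5d, and its log2 fold change was 0.35 without 5d replicate 9 and 0.28 with the replicate number as a block. Of 17 clock genes edgeR gave 0 and DESeq2 gave 2 at an unadjusted p under 0.05, with log2 fold changes between −1.11 and 0.91.

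The kidneys at 28d post-MI came from other mice, and there were no sham kidneys of that time. Whether a difference between 28d and 5d came from the infarct, age or time since the operation cannot be told apart. Between 28d and 5d post-MI, 53 genes were DEGs (0.415% of those tested), 43 higher (0.336%) and 10 lower (0.0782%) at 28d. Both comparisons use the same kidneys at 5d. The immediate early list held 10 of the 53 genes, all higher at 28d, and haemoglobin 5, all lower. Ren1 had 178 to 423 CPM at 5d and 90.3 to 151 CPM at 28d (log2 difference −1.15, adjusted p = 0.00886 from edgeR). Enpep of the same system was lower at 28d by 0.32. Fos was higher at 28d by 2.14, Ier2 by 2.25 and Ccn1 by 1.59. Igkc and Jchain of plasma cells were higher at 28d by 1.78 and 2.02. They differed by −0.11 and −0.33 between 5d and sham, where Jchain was named after its values had been seen. Gm4450 differed by −0.36 between the times (adjusted p = 0.0596) and Sema3g by −0.26 (adjusted p = 0.534). The lists of fatty acid synthesis and thick ascending limb had medians of −0.02 and −0.06 between 28d and 5d, and none of their genes was a DEG between the times.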

How the data were processed

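Kidney RNA was sequenced from the 3′ ends with molecular identifiers. The authors trimmed and mapped the reads and counted them per gene with HTSeq. Their methods name the mouse build mm10, the submitters' processing notes name mm39, and the strand setting of the counting is not given in the sources used here. The deposited counts per gene were used as they stand, and the other 26 columns of values, which hold rescaled counts or belong to columns that share a name, were not used. Genes were filtered with filterByExpr (minimum count 10), scaled by TMM and tested with edgeR 4.0.16 in R 4.3.3 (quasi-likelihood F test, robust, sham, 5d and 28d kidneys in 1 model). An adjusted p under 0.05 made a DEG. CPM are counts scaled to the same total in every kidney and are not per length. The study's methods describe kidneys of separate mice, and p-values measure the spread between these kidneys. Alternatives were DESeq2 1.42.0, limma voom 3.58.1, other filters, covariate scores (mean log2 CPM, prior count 2), a replicate block and leaving out each kidney. The script was tested on simulated counts. The 61 gene lists and the comparison were chosen with earlier results of these data known, so counts over lists describe and do not test them. Named genes are all DEGs, the 12 genes with the lowest p in each direction, and in each list up to 3 members with the lowest unadjusted p under 0.05 in each direction and the 2 with the highest mean CPM, and the 3 with the lowest p in each direction between 28d and 5d. Some genes that the rule names are not reported here. Coordinates are from GENCODE M21 (GRCm38) and promoters from RefSeq (GRCm38.p6).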

Additional observations from a re-analysis of the deposited data

Results flagged for a closer look

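Single kidneys stood apart from the rest of their group in 18 of 160 gene and group pairs looked at, where chance sets apart about 1 in 20 groups. Sham replicate 4 was the lowest sham kidney in all 5 haemoglobin genes, with 581 CPM of Hba-a1, 533 CPM of Hba-a2, 11.1 CPM of Hba-ps3, 869 CPM of Hbb-bs and 217 CPM of Hbb-bt, and in Hspg2 with 56.4 CPM. Sham replicate 2, which held adrenal RNA, was lowest in Slc2a1 (24.8 CPM) and Dusp1 (101 CPM). Sham replicate 8, with the lowest adipocyte markers of its group, was lowest in Insig1 (33.3 CPM). Sham replicate 5 was highest in Npr3 (17.3 CPM), sham replicate 3 in Cd2ap (71.2 CPM) and sham replicate 6, which held adrenal RNA, in Atf4 (148 CPM). Among kidneys at 5d post-MI, replicate 9 was highest in Fkbp5 (189 CPM), Hspg2 (64.8 CPM) and Atf4 (151 CPM), replicate 1 was highest in Gstp1 (110 CPM), and replicate 7 was lowest in Ighm (3.01 CPM) and Agtr1a (22 CPM).

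The difference between 28d and 5d post-MI passed the adjusted test in edgeR for 20 of the 80 genes looked at. Among all 12780 genes tested it was 53 (0.415%). The 80 include genes picked for a low p in this comparison or at 5d against sham, which uses the same kidneys at 5d. A high share among them was thus set by the choice. On the log2 scale it was −1.78 for Hba-a1, −1.80 for Hba-a2, −1.72 for Hba-ps3, −1.75 for Hbb-bs, −1.88 for Hbb-bt, −1.34 for Tent5c and −1.15 for Ren1, which were all lower at 28d. Immediate early genes were higher at 28d, by 2.14 for Fos, 1.95 for Junb, 1.69 for Jun, 2.0 for Nr4a1, 2.25 for Ier2, 1.97 for Btg2 and 1.55 for Dusp1. Higher at 28d were also Ccn1 (1.59), Cxcl1 (1.38), H4c9 (1.77), Gdf15 (1.45), Atf4 (0.45) and Calr (0.25).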

How the results depend on the processing

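The 9 DEGs between 5d and sham became 80 with no filter on low counts, 36 with DESeq2, 22 with limma voom, 2 with only sham and 5d kidneys, 1 with fat and adrenal scores as covariates, 0 with the red blood cell score, 2 without the 3 kidneys with adrenal RNA, 2 with the replicate block and 0 with the white adipocyte score and without those 3 kidneys, and 1 to 38 in fits that left out a kidney. The 53 DEGs between 28d and 5d became 160 with no filter, 91 with DESeq2, 1 with the red blood cell score, 80 with the replicate block and 41 to 84 without 1 kidney. The 171 list genes with an unadjusted p under 0.05 became 84 with the red blood cell score and 106 with the white adipocyte score and without the 3 kidneys. The last alternative and the one without the 3 kidneys were chosen after seeing the data. The cause of these changes was not tested. The sign turned for Gatm (0.0028) with the red blood cell score, for Kcnk3 (0.0824) and Akr1b7 (0.0845) with the white adipocyte score and without the 3 kidneys, for Akr1b7 (0.22) without the 3 kidneys, and for Atf4, at 0.0332 with fat and adrenal scores, 0.026 with the red blood cell score, 0.0315 without the 3 kidneys, 0.0743 with the white adipocyte score and without them, and from −0.054 without 5d replicate 9 to 0.0155 without sham replicate 6, with 0.0029 without 5d replicate 7. Same-numbered kidneys showed no common deviation (r from −0.15 to 0.10 over 7 pairs). So few pairs cannot settle whether the numbers pair the kidneys. Leaving out kidneys by the sum of all adrenal markers was not run, since Fdx1 and Fdxr put every kidney over the limit. Genes with few counts, such as Havcr1 and Lcn2, were not tested in the main fit, and small differences in them were not detectable at this depth.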

Other observations

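The water channel gene Aqp2 of the collecting duct had 301, 589, 885, 303, 591, 1218, 331 and 458 CPM in 5d replicates 1, 2, 3, 5, 6, 7, 8 and 9, against 353 to 611 CPM in sham kidneys (SD 323 and 97.1, n = 8 each). The spread itself was not tested.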
